A study of Homo sapiens with 20 samples.

Results

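The 30 genes described here encode lysosomal hydrolases, lysosomal membrane proteins, subunits of the lysosomal proton pump and TFEB, a transcription factor of lysosomal genes. They were picked by gene name from the 60271 genes of the count table, with earlier results of these data known, and all 30 passed edgeR's filter on low counts, which kept 16522 genes. The libraries are from MDA-MB-468 cells, an established human cell line from a triple-negative breast cancer that carries many copies of the EGFR gene. All cells were seeded and serum-starved. Control cells received no EGF (0 h), and the other groups received 50 ng/mL epidermal growth factor (EGF) for 12, 24, 48 or 72 h, with 4 biological replicates in each of the 5 groups and 20 libraries in all. The study used EGF to bring about an epithelial-mesenchymal transition (EMT) and measured gene expression over time. Each time point is set against the same 4 control libraries, so the 4 comparisons are not independent. When the untreated cultures of these libraries were harvested is not given. Whether the hours of EGF can be told apart from the hours in culture is therefore unknown.

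Lysosomes are acidic organelles that break down material delivered by endocytosis and autophagy. Their soluble hydrolases work at the low pH set by the vacuolar proton pump (V-ATPase), and heavily glycosylated membrane proteins line the organelle. TFEB and its relatives of the MiT/TFE family bind a short DNA element, the CLEAR element, near the start of many lysosomal genes. In epithelial cells, the lysosome is also where the EGF receptor is degraded after it has been activated and internalized.

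Depth was 15611961 to 25856953 estimated counts per library, with a median of 20398047, and mitochondrial genes held 9.03 to 12.6% of them in the control, 7.69 to 11.3% at 12 h, 11.1 to 13.8% at 24 h, 9.83 to 16.9% at 48 h and 12.3 to 16.4% at 72 h. This share moved with time, and its part in the changes over time was not tested. Expression is given as CPM, the counts of a gene scaled to a common library total by TMM, and values after ± are the SD among the 4 libraries of each group. Log2 fold changes are followed by their standard error. Every adjusted p comes from the quasi-likelihood test of edgeR, adjusted by Benjamini-Hochberg across the 16522 genes, and genes with an adjusted p under 0.05 are said to have risen, fallen or been called. Some libraries stood apart. Among the 4 controls, replicate 2 held the highest CPM of 15 members and the lowest of 9, and replicate 3 held the lowest of 16. At 48 h, replicate 2 held the highest CPM of 14 members and the lowest of 9, and replicate 3 the lowest of 18. Replicate 2 at 48 h also had the highest mitochondrial share, 16.9%. Results are therefore also given without these 4 libraries. Other libraries were often lowest too, with replicate 2 at 72 h lowest for 17 members and replicate 3 at 12 h for 15. Leaving out either of these gave 17 members called against control at its time, against 19 with all libraries. Without the library at 12 h, the calls of GLA, GUSB and GAA were lost and CTSZ was newly called. Without the library at 72 h, the calls of CTSH and PSAP were lost. Of 8 epithelial marker genes, all were expressed. Their summed level was 5156 to 5701 CPM without EGF, 20164 to 21046 CPM at 12 h and 8332 to 9107 CPM at 72 h. Most of it came from EGFR (means of 3474 CPM without EGF and 11751.5 CPM at 12 h) and KRT18 (788 and 5136 CPM). EPCAM had means of 181 CPM without EGF, 215 CPM at 12 h and 144 CPM at 72 h, and CDH1 127, 181 and 90.6 CPM. Of 5 leukocyte and macrophage markers, AIF1 was at 0 in every library, and CD163 and PTPRC reached at most 1 and 8 counts, whereas CSF1R and CD14 were measurable. Of 3 receptor genes that triple-negative tumours lack at the protein level, PGR was at 0 in every library, whereas ERBB2 had a mean of 21.5 ± 2.96 CPM and ESR1 of 5.03 ± 1.06 CPM in the control. Fibroblast and endothelial markers summed to 7.11 to 10.05 CPM in the control and 16.3 to 18.1 CPM at 72 h. Nearly all of it came from COL1A1 (means of 6.18 and 13.9 CPM) and PECAM1 (2.31 and 3.08 CPM). COL3A1, PDGFRB, DCN and VWF were near 0 in every group. In these bulk samples, fewer cells of a type and less RNA per cell cannot be told apart.

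Promoter sequences of 21 of the 30 genes were found in RefSeq (GRCh38.p14), each spanning 250 bases before and 50 bases after a start site. The CLEAR core, TCACGTGA, was found in the promoters of 5 of these 21 genes, and in 1.18% of the 27305 genes with a promoter in the table. The shorter E-box CACGTG, which the CLEAR core contains, was found in 8 of the 21 genes and in 8.78% of all genes. Both motifs read the same on either strand. The 8 genes are LAMP1, ATP6V0D1, GAA, MCOLN1 and CTSA, which hold the CLEAR core, and ARSB, NEU1 and CTSD, which hold only the E-box. The stretches before the start sites of the 5 genes with the CLEAR core are shown. These genes span several roles and, as described below, did not change alike. Each runs 5′ to 3′ on the gene's strand up to the base before the start site, with CACGTG, or TCACGTGA where it is complete, in capitals. They lie at chr13:113297027-113297238 (plus strand) for LAMP1, chr16:67481158-67481236 (minus strand) for ATP6V0D1, chr17:80101485-80101580 (plus strand) for GAA, chr19:7522563-7522623 (plus strand) for MCOLN1 and chr20:45891273-45891334 (plus strand) for CTSA.
LAMP1: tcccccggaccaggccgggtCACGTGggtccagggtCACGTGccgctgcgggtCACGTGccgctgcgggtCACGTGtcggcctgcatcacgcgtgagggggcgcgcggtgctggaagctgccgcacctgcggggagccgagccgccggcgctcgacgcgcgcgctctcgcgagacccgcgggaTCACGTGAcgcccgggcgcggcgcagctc
ATP6V0D1: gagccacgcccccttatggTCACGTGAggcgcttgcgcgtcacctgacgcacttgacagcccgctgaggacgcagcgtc
GAA: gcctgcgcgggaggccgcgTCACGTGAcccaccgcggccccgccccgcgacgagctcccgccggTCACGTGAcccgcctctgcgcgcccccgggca
MCOLN1: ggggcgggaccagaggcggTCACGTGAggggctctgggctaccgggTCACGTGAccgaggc
CTSA: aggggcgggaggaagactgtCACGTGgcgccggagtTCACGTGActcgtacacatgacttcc
In LAMP1, 4 E-boxes lie between 192 and 142 bases before the start site and a CLEAR core 29 bases before it, and 1 more core runs across the start site itself. GAA and MCOLN1 hold 2 CLEAR cores each, beginning 77 and 32 bases before the start site in GAA and 42 and 15 bases before it in MCOLN1. The single core of ATP6V0D1 begins 60 bases before the start site, and that of CTSA 26 bases before it, next to an E-box that begins 42 bases before it.

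In the untreated control, the level per kilobase of merged exons of the members ranged from 1.02 to 82.02 CPM per kb. LAMP2, CTSD (80.1 CPM per kb), NPC2 (70.1 CPM per kb), LAMP1 (69.1 CPM per kb) and PSAP (63.7 CPM per kb) had the highest levels. SGSH (1.36 CPM per kb), TFEB (1.07 CPM per kb) and MCOLN1 had the lowest. The 5 highest thus include both LAMP glycoproteins, the aspartic protease CTSD and a pair of lipid-handling proteins. The rest lay between, from ATP6AP1 (41.3 CPM per kb) and LIPA (34.7 CPM per kb) down to ARSA (2.23 CPM per kb) and CTSS (1.91 CPM per kb).

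After EGF was added, the members did not move as a block. Most fell during the first 24 h, a few proteases and TFEB rose by up to 4.87-fold, and 15 genes rose from 24 to 48 h. At 12 h, 6 of the 30 genes rose and 13 fell, that is 20% and 43.3%, against 32.9% and 36.5% of all genes tested. At 24 h, 8 rose and 18 fell, that is 26.7% and 60%, against 29.2% and 29.6% of all genes. The share that fell at 24 h was thus above the share of all genes, while the share that rose was close to it. At 48 h, 8 rose and 8 fell (26.7% each, against 24% and 21.8% of all genes), and at 72 h 9 rose and 10 fell (30% and 33.3%, against 30.6% and 31% of all genes). At these later times, the shares of members called were close to those of all genes. Over the 30 members, the median log2 fold change after 12, 24, 48 and 72 h was -0.13, -0.36, 0.016 and -0.087, and over all genes it was -0.054, -0.0071, 0.0099 and -0.0090. By role, the median log2 fold change after 24 h was -0.13 for the 9 proteases, -0.35 for the 6 glycosidases, -0.71 for the 3 sulfatases, -0.54 for the 4 lipid genes, -0.43 for the 4 membrane proteins and -0.52 for the 3 V-ATPase subunits. Of the called members, 16 of 19 at 12 h, 22 of 26 at 24 h, 10 of 16 at 48 h and 15 of 19 at 72 h had all 4 EGF libraries beyond all 4 control libraries. The same was not counted for all genes, so these counts describe the members only and do not set them apart.

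**Figure D1:**
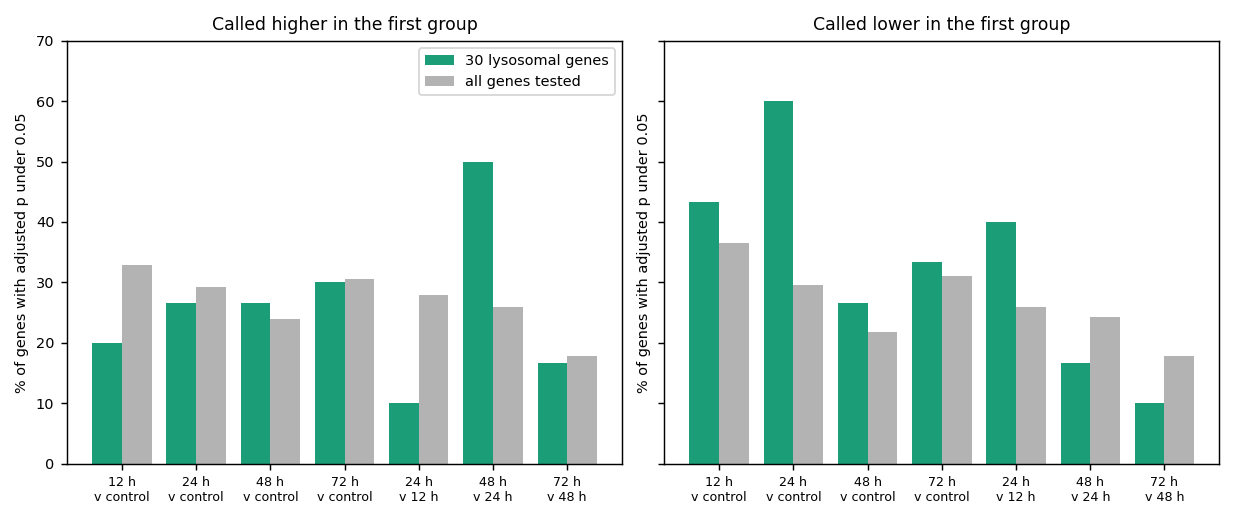
Percentage of the 30 lysosomal genes (green bars) and of all 16522 genes tested (gray bars) with an edgeR adjusted p under 0.05, for the 4 comparisons with control and the 3 comparisons between successive times, with genes higher in the first group on the left and lower on the right. The lysosomal bar stands furthest above the gray bar for falls at 24 h (60% against 29.6%) and for rises from 24 to 48 h (50% against 25.9%).

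Over the 4 times, 4 genes (CTSA, CTSB, NPC2 and TFEB) rose at every time and 6 (CTSL, HEXA, ASAH1, LAMP1, LAMP2 and SCARB2) fell at every time. A further 5 (CTSC, CTSS, GLA, GLB1 and ATP6V1H) rose at some times only and 12 fell at some times only. GUSB was called in both directions, and CTSD and MCOLN1 were called at no time. Such patterns over the 4 times were not counted for all genes. CTSB, TFEB, CTSL and ASAH1 kept these calls at all 4 times in every alternative tried. The scaling bears on the balance of these counts. With library size only, the median of all genes shifted by -0.28 at 12 h and by -0.14 at 24 h relative to TMM scaling, and 4 members rose and 18 fell at 12 h and 4 rose and 19 fell at 24 h. With upper quartile scaling, which shifted it by -0.16, 4 rose and 17 fell at 12 h. With factors per gene taken from the deposited normalized values, the median shifted by 0.12 at 12 h, where 6 rose and 12 fell. With these factors 3 rose and 18 fell at 24 h and 3 rose and 7 fell at 48 h, where the median shifted by 0.0041 and -0.054. At 72 h, 7 rose and 13 fell with library size only. Without the 4 libraries that stood apart, 6 rose and 13 fell at 12 h, 7 and 18 at 24 h, 5 and 7 at 48 h and 8 and 11 at 72 h. A change of setting also moves the shares of all genes. Those shares are not given here, so the counts under other settings cannot be read against the TMM shares.

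**Figure D2:**
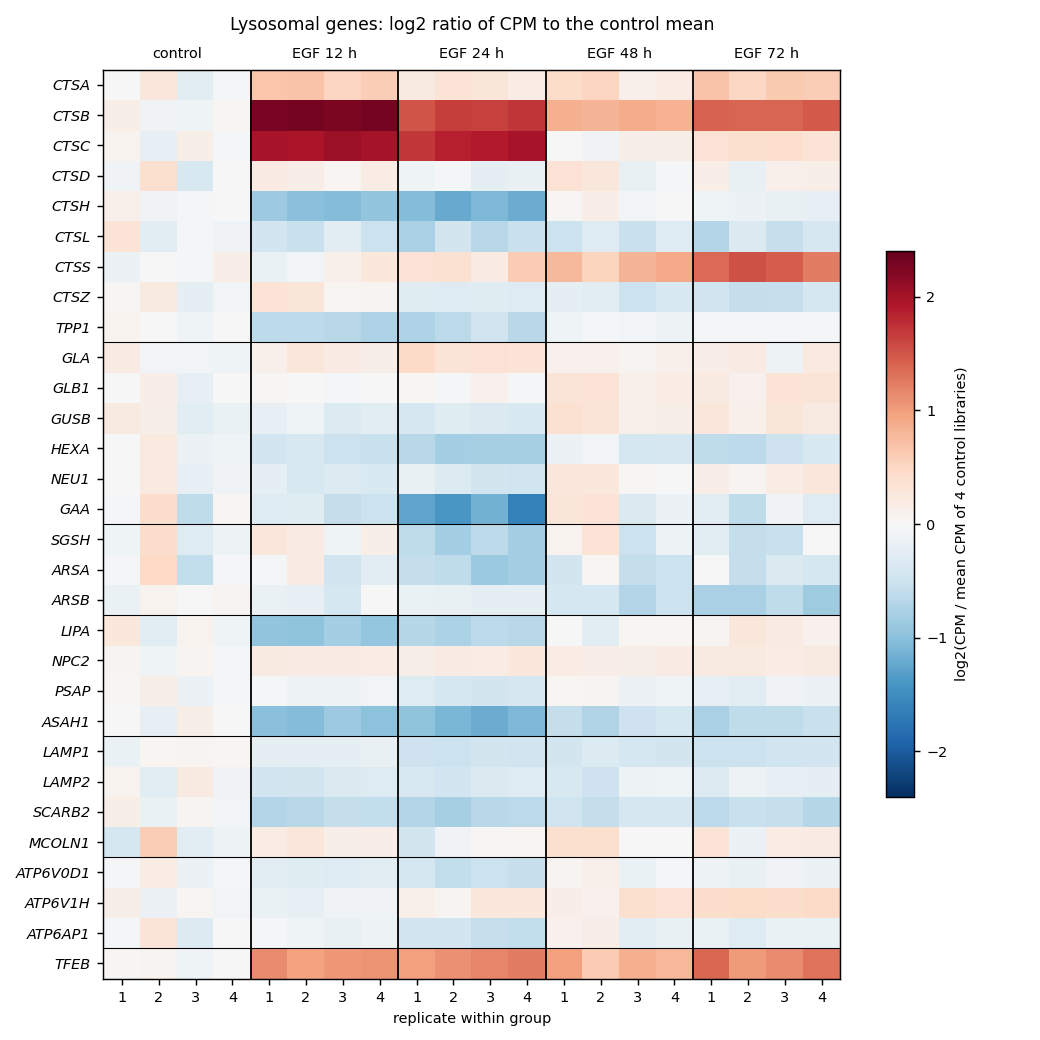
Log2 ratio of the CPM in each of the 20 libraries (columns, by group and replicate) to the mean CPM of the 4 control libraries, for the 30 lysosomal genes (rows, lines separate roles). Red is above and blue below the control mean. Among the reddest cells are those of CTSB and CTSC at 12 h, with mean log2 fold changes of 2.28 and 2.00, and among the bluest those of GAA and CTSH at 24 h, with -1.35 and -1.12.

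The largest rises among the members were those of cathepsin B and cathepsin C. CTSB, a cysteine protease that cuts within proteins and also removes dipeptides from their ends, rose at all 4 times. Its CPM was 64.9, 65.7, 71.4 and 76.3 in the 4 control libraries, 335, 338, 339.9 and 342 at 12 h, 198, 217, 219.7 and 227 at 24 h, 122, 124, 126 and 128 at 48 h and 182, 183, 186 and 193 at 72 h. The groups did not overlap at any time with the control, and the level at 12 h was the highest of the time course. The log2 fold change was 2.28 ± 0.061 at 12 h (4.87-fold, adjusted p = 3.21e-19), 1.63 ± 0.060 at 24 h (adjusted p = 8.72e-17), 0.85 ± 0.059 at 48 h (adjusted p = 3.12e-11) and 1.42 ± 0.060 at 72 h (adjusted p = 8.85e-16). After falling from 24 to 48 h, CTSB rose again from 48 to 72 h, with a log2 fold change of 0.57 ± 0.058 (adjusted p = 5.88e-08).

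CTSC, a dipeptidyl peptidase that activates other proteases, lies at chr11:88293592-88337787, minus strand (GRCh38, 10 merged exons). It had 73.4, 81.9, 89.2 and 93.6 CPM without EGF, 329, 334, 336 and 350.4 CPM at 12 h and 275, 309, 316 and 332 CPM at 24 h. At 48 h it had 79.8, 85.1, 92.7 and 93.5 CPM, and at 72 h 106, 107, 110.1 and 111 CPM. The libraries at 12 and 24 h were far above the control, whereas those at 48 h overlapped with it. edgeR gave a log2 fold change of 2.00 ± 0.075 at 12 h (adjusted p = 1.09e-16) and 1.87 ± 0.075 at 24 h (adjusted p = 4.6e-16). It was 0.055 ± 0.074 at 48 h, which was not called (adjusted p = 0.566), and 0.36 ± 0.074 at 72 h (adjusted p = 0.00016). From 24 to 48 h, CTSC fell by 1.81 on the log2 scale (SE 0.075, adjusted p = 1.43e-14), which is the largest difference of any member between successive times. From 48 to 72 h it rose again by 0.31 ± 0.074 (adjusted p = 0.00203).

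CTSS, a cysteine protease best known from antigen-presenting cells, rose later. Its CPM was 7.33, 7.94, 7.99 and 9.04 in the control, 7.22, 7.74, 8.84 and 9.66 at 12 h, 9.30, 10.3, 10.3 and 12.3 at 24 h, 11.7, 13.8, 14.1 and 15.1 at 48 h and 18.97, 20.7, 22.1 and 23.3 at 72 h. The libraries at 12 h overlapped with the control, and those at all later times were above it. On the log2 scale, the change was 0.39 ± 0.11 at 24 h (adjusted p = 0.00464), 0.76 ± 0.11 at 48 h (adjusted p = 4.58e-06) and 1.40 ± 0.11 at 72 h (adjusted p = 9.23e-11). The CTSS call at 24 h was lost with library size only and with factors per gene. The leukocyte and macrophage markers had a summed level of 6.18 to 7.88 CPM without EGF, 2.83 to 3.65 CPM at 12 h, 4.44 to 7.07 CPM at 24 h, 14.7 to 18.8 CPM at 48 h and 11.8 to 14.6 CPM at 72 h, nearly all of it from CSF1R and CD14. Their part in the CTSS result was not tested, and PTPRC, the general leukocyte marker, was at or near 0 throughout.

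CTSA, a serine carboxypeptidase that also protects beta-galactosidase and the sialidase NEU1, rose at all 4 times. Its CPM was 50.9, 59.9, 61.4 and 74.5 in the control, 87.8, 92.96, 97.4 and 98.7 at 12 h, 69.8, 72.02, 75.7 and 77.3 at 24 h, 66.7, 69.98, 83.3 and 88.5 at 48 h and 87.6, 93.2, 95.3 and 99.7 at 72 h. The libraries at 12 and 72 h were all above the control, whereas 2 of 4 were at 24 and at 48 h. Its log2 fold change was 0.61 ± 0.096 at 12 h (adjusted p = 4.76e-06), 0.26 ± 0.096 at 24 h (adjusted p = 0.0251), 0.32 ± 0.096 at 48 h (adjusted p = 0.0082) and 0.61 ± 0.096 at 72 h (adjusted p = 7.27e-06). The call at 24 h was lost with library size only, upper quartile scaling and factors per gene. NEURL2 exons overlap 28.5% of the CTSA exon bases from the opposite strand, and it is not given whether counting used the strand.

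Other proteases fell. CTSH, an aminopeptidase, had 65.4, 67.1, 69.3 and 75.2 CPM without EGF, 33.5, 34.7, 36.01 and 37.7 CPM at 12 h and 30.1, 30.4, 32.8 and 33.8 CPM at 24 h. At 48 h it had 66.2, 69.7, 70.8 and 77.1 CPM, and at 72 h 60.5, 61.3, 62.4 and 64.2 CPM. All libraries at 12 and 24 h were below all controls, at mean folds of 0.513 and 0.459, and at 48 h the groups overlapped. Relative to untreated cells, the log2 fold change was -0.96 ± 0.066 at 12 h (adjusted p = 6.49e-12), -1.12 ± 0.067 at 24 h (adjusted p = 7.41e-13) and 0.036 ± 0.064 at 48 h (adjusted p = 0.682). From 24 to 48 h, CTSH rose by 1.16 ± 0.067 (adjusted p = 3.31e-12), in the same interval in which CTSC fell. Its small fall at 72 h, -0.16 ± 0.065 (adjusted p = 0.0414), was lost when any 1 of the 4 libraries at 72 h was left out. TPP1, which removes tripeptides from the ends of proteins, went from 65.8 ± 3.45 CPM without EGF to 41.4 ± 1.57 CPM at 12 h, 42.6 ± 3.40 CPM at 24 h and 62.02 ± 1.51 CPM at 48 h, and its log2 fold change at 12 h was -0.67 ± 0.062 (adjusted p = 1.47e-09). It fell at 12 and 24 h and was not called at 48 or 72 h.

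CTSL, a cysteine endopeptidase, fell at all 4 times, from 15.01 ± 2.66 CPM without EGF to 9.93 ± 1.05 CPM at 24 h, where the log2 fold change was -0.59 ± 0.12 (adjusted p = 0.000137). All 4 libraries at each time were below all 4 controls. CTSZ, a carboxypeptidase, was not called at 12 h and fell at the 3 later times, down to 17.6 ± 0.842 CPM at 72 h from 24.9 ± 3.04 CPM, a log2 fold change of -0.50 ± 0.091 (adjusted p = 4.11e-05). CTSD, the main aspartic protease of lysosomes, was called at no time. It had 191, 235, 248 and 328 CPM without EGF, with replicate 2 the highest and replicate 3 the lowest, and its log2 fold changes ranged from -0.13 at 24 h to 0.15 at 12 h, with standard errors near 0.13. Exons of AC068580.4 overlap 41.7% of the CTSD exon bases on the same strand, so that its counts are uncertain. Of the 9 proteases, 3 rose and 3 fell at 12 h, 4 and 4 at 24 h, 3 and 2 at 48 h, and 4 and 3 at 72 h. Of all genes, 32.9% rose and 36.5% fell at 12 h, 29.2% and 29.6% at 24 h, 24% and 21.8% at 48 h, and 30.6% and 31% at 72 h.

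**Figure D3:**
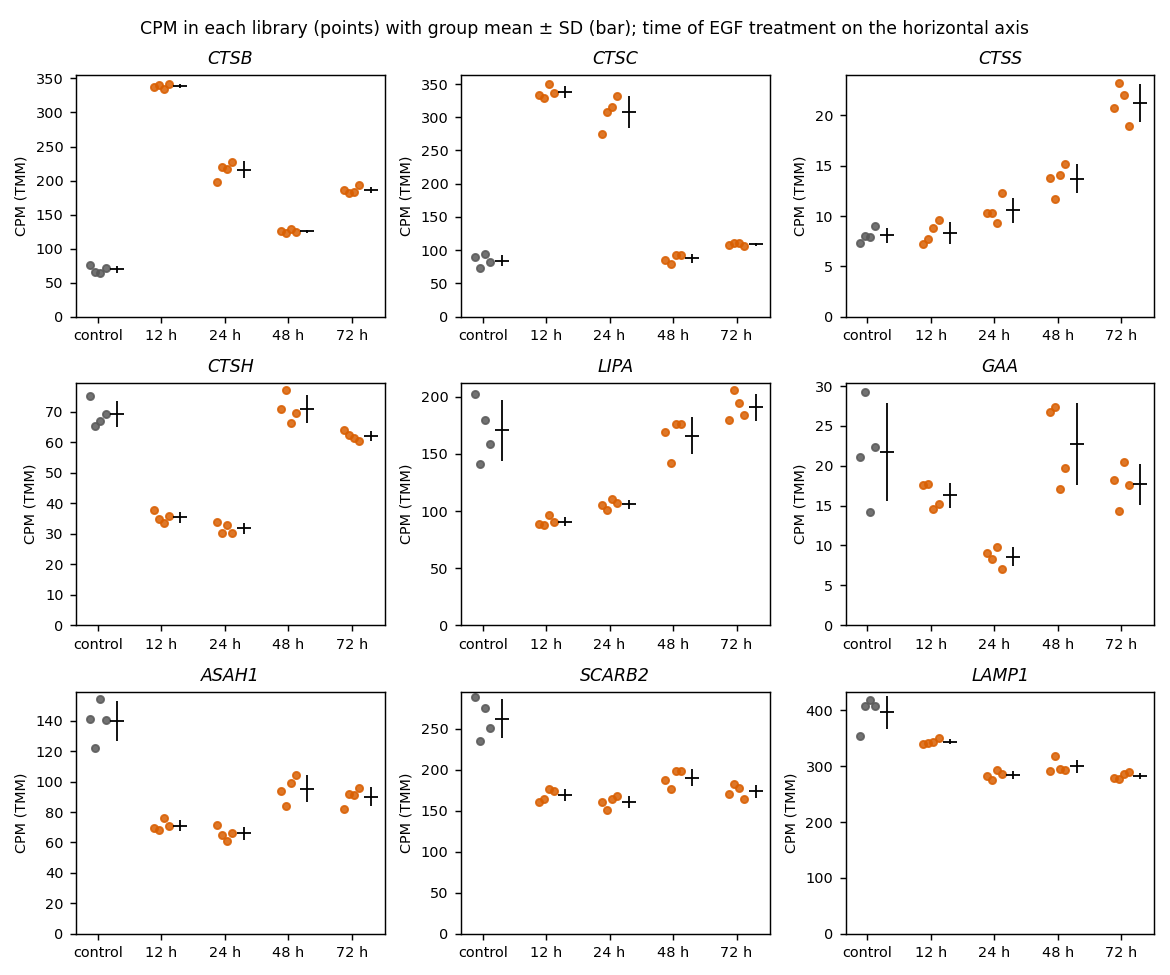
CPM after TMM scaling of 9 lysosomal genes in each of the 4 control libraries (gray points) and the 4 libraries of each EGF time (orange points), with the group mean and SD beside them as a bar. CTSB and CTSC were highest at 12 h, CTSS at 72 h. CTSH and LIPA were lowest at 12 or 24 h and overlapped with the control at 48 h, whereas ASAH1, SCARB2 and LAMP1 were below all controls at all 4 times.

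Among the 6 glycosidases, which remove sugars from glycolipids, glycoproteins and glycogen, 1 rose and 4 fell at 12 h and at 24 h, and 2 rose and 1 fell at 48 and at 72 h. The shares of all genes at these times are those given with the proteases. GAA, the enzyme that breaks down glycogen in lysosomes, showed the largest fall of any member against control. It had 14.2, 21.1, 22.4 and 29.3 CPM without EGF, 14.6, 15.3, 17.5 and 17.7 CPM at 12 h, 7.08, 8.31, 9.05 and 9.87 CPM at 24 h, 17.1, 19.8, 26.8 and 27.3 CPM at 48 h and 14.3, 17.6, 18.3 and 20.5 CPM at 72 h. The control libraries lay far apart, yet all 4 libraries at 24 h were below the lowest of them. The log2 fold change was -1.35 ± 0.19 at 24 h (adjusted p = 1.98e-06), and from 24 to 48 h GAA rose by 1.41 ± 0.19 (adjusted p = 2.19e-06). At 12 h the log2 fold change was -0.42 ± 0.18 (adjusted p = 0.039) and the groups overlapped. That call was lost with several alternatives, including the DESeq2 Wald test.

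HEXA, the alpha subunit of beta-hexosaminidase A, fell at all 4 times. It had 23.5, 23.9, 25.7 and 30.2 CPM without EGF, 14.7, 14.9, 14.9 and 16.4 CPM at 24 h and 16.6, 17.03, 18.3 and 20.1 CPM at 72 h, where the log2 fold changes were -0.76 ± 0.096 (adjusted p = 3.37e-07) and -0.52 ± 0.095 (adjusted p = 4.82e-05). Its call at 48 h, with -0.25 ± 0.094 (adjusted p = 0.0321), was lost without the 4 libraries that stood apart. Exons of other genes on the opposite strand overlap 13.0% of the HEXA exon bases. NEU1, the lysosomal sialidase, fell from 42.8 ± 5.61 CPM to 34.1 ± 1.66 CPM at 12 h and 33.6 ± 3.37 CPM at 24 h, with log2 fold changes of -0.33 ± 0.091 (adjusted p = 0.00268) and -0.35 ± 0.091 (adjusted p = 0.00207). Its levels of 47.2 ± 4.75 CPM at 48 h and 48.2 ± 2.73 CPM at 72 h were not called.

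GUSB, the beta-glucuronidase, was the only member called in both directions against control, and it has pseudogene copies that can share its reads. It had 22.7, 24.3, 29.9 and 31.2 CPM without EGF, 21.5, 22.4, 23.5 and 25.1 CPM at 12 h, 20.5, 21.1, 21.2 and 21.98 CPM at 24 h, 29.3, 29.6, 33.5 and 34.9 CPM at 48 h and 29.4, 31.4, 32.6 and 32.9 CPM at 72 h. At 24 h all 4 libraries were below all controls, whereas 2 of 4 at 48 h and 3 of 4 at 72 h were above all of them. The log2 fold change against control was -0.35 ± 0.092 at 24 h (adjusted p = 0.00219) and 0.24 ± 0.090 at 48 h (adjusted p = 0.0357), and the direct comparison of 48 with 24 h gave 0.59 ± 0.092 (adjusted p = 1.31e-05). The calls against control at 12, 48 and 72 h were each lost under several alternatives, and those at 48 and 72 h without the 4 libraries that stood apart. GLA, an alpha-galactosidase, rose to 27.1 ± 1.29 CPM at 24 h from 21.1 ± 2.12 CPM, a log2 fold change of 0.36 ± 0.081 (adjusted p = 0.000558) that was lost with factors per gene. Its call at 12 h, 0.19 ± 0.081 (adjusted p = 0.0454), turned to -0.099 with library size only. GLB1, the beta-galactosidase, rose at 48 and 72 h to 97.6 ± 6.87 and 97.9 ± 6.93 CPM from 82.8 ± 8.55 CPM, with log2 fold changes of 0.24 ± 0.073 (adjusted p = 0.0103) and 0.24 ± 0.073 (adjusted p = 0.00637). In both groups 3 of 4 libraries were above all controls. The GLB1 call at 48 h was lost with factors per gene and with only the 8 libraries compared, and the call at 72 h with library size only.

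The 3 sulfatases, which remove sulfate from glycosaminoglycans and sulfatides, were at 1.36 to 2.23 CPM per kb in the control, and none rose. SGSH, which acts on heparan sulfate, had 7.38, 8.36, 8.54 and 12.2 CPM without EGF and 5.17, 5.20, 5.90 and 5.98 CPM at 24 h, a log2 fold change of -0.72 ± 0.17 (adjusted p = 0.000931) with no overlap. ARSA, which acts on sulfatides, had 4.31, 6.30, 6.38 and 9.12 CPM without EGF and 3.53, 3.71, 4.29 and 4.40 CPM at 24 h, a log2 fold change of -0.71 ± 0.20 (adjusted p = 0.00321) with 3 of 4 libraries below all controls. Neither gene was called at the other 3 times. ARSB, which acts on dermatan and chondroitin sulfate, had another time course. It had 17.3, 19.3, 20.1 and 20.5 CPM without EGF, 11.8, 13.5, 14.5 and 14.5 CPM at 48 h and 10.7, 11.2, 11.3 and 12.6 CPM at 72 h, and it was below all controls at both late times. Its log2 fold change was -0.19 ± 0.090 at 24 h (adjusted p = 0.0759), -0.51 ± 0.091 at 48 h (adjusted p = 6.33e-05) and -0.75 ± 0.092 at 72 h (adjusted p = 1.82e-07).

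The 4 genes of lipid breakdown did not follow 1 time course. ASAH1, the acid ceramidase, had 122, 140.2, 141 and 155 CPM without EGF, 67.99, 69.7, 70.8 and 75.9 CPM at 12 h, 60.8, 65.03, 66.5 and 71.5 CPM at 24 h, 84.1, 93.8, 99.1 and 105 CPM at 48 h and 81.9, 90.97, 91.99 and 95.99 CPM at 72 h. All EGF libraries were below all controls. Its log2 fold change was -0.97 ± 0.079 at 12 h (adjusted p = 1.12e-10), -1.08 ± 0.079 at 24 h (adjusted p = 3.18e-11), -0.55 ± 0.078 at 48 h (adjusted p = 3.51e-06) and -0.63 ± 0.078 at 72 h (adjusted p = 2.09e-07). From 24 to 48 h it rose by 0.53 ± 0.079 (adjusted p = 6.37e-06) without reaching the control.

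LIPA, the acid lipase that cleaves cholesteryl esters and triglycerides, had 141, 158, 179.8 and 202 CPM without EGF, 87.7, 88.7, 89.95 and 96.4 CPM at 12 h and 101, 105, 107 and 111 CPM at 24 h. It had 142, 169, 176 and 177 CPM at 48 h and 179, 184, 194 and 206 CPM at 72 h, and these libraries overlapped with the control. edgeR gave a log2 fold change of -0.91 ± 0.089 at 12 h (adjusted p = 2.96e-09), -0.69 ± 0.088 at 24 h (adjusted p = 4.53e-07), -0.037 ± 0.087 at 48 h (adjusted p = 0.755) and 0.16 ± 0.087 at 72 h (adjusted p = 0.109). NPC2, which binds the cholesterol released by LIPA and passes it to NPC1, rose at all 4 times by a small amount. Its CPM was 179, 187, 202 and 203 in the control, and the 16 EGF libraries lay between 212 and 229 CPM, all above the controls. The log2 fold change of NPC2 was between 0.16 at 48 h and 0.21 at 72 h, and with library size only it turned to -0.092 at 12 h. The NPC2 call at 12 h was lost with library size only and upper quartile scaling, and that at 24 h with library size only and factors per gene. The call at 48 h was lost with factors per gene, with no filter beyond 1 count and with only the 8 libraries compared. It was also lost without the 4 libraries that stood apart. Only the NPC2 call at 72 h was kept in every alternative. PSAP, the precursor of the saposins that help hydrolases reach sphingolipids, fell from 206 ± 16.6 CPM to 157 ± 6.33 CPM at 24 h, a log2 fold change of -0.39 ± 0.066 (adjusted p = 1.74e-05), and the smaller fall at 72 h, -0.17 ± 0.066 (adjusted p = 0.0292), was lost with DESeq2 size factors.

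Of the 4 membrane proteins, 3 fell at all 4 times and none rose, and the share of all genes that fell at all 4 times was not counted. SCARB2, the receptor that carries glucocerebrosidase to the lysosome, fell furthest. Its CPM was 235, 251, 275 and 289 in the control, 161, 165, 174 and 176 at 12 h, 151, 161, 165 and 168 at 24 h, 177, 188, 198 and 199 at 48 h and 164, 171, 178 and 182 at 72 h. No EGF library reached the lowest control. On the log2 scale, the change was -0.64 ± 0.066 at 12 h (adjusted p = 8.86e-09), -0.70 ± 0.066 at 24 h (adjusted p = 2.79e-09), -0.46 ± 0.066 at 48 h (adjusted p = 3.74e-06) and -0.60 ± 0.066 at 72 h (adjusted p = 3.9e-08). With factors per gene it was -0.22 at 12 h and still called, whereas at 24, 48 and 72 h it was -0.17, -0.15 and -0.049 and the call was lost.

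LAMP1, with LAMP2 a major glycoprotein of the lysosomal membrane, lies at chr13:113297241-113323672, plus strand, and its promoter holds the E-boxes and CLEAR cores shown above. Its CPM was 353, 408, 408 and 418 in the control, 340.4, 342, 344 and 350.4 at 12 h, 276, 283, 286 and 293 at 24 h, 292, 294, 296 and 318 at 48 h and 277, 279, 285 and 289 at 72 h. All EGF libraries were below all controls, though the highest library at 12 h came close to control replicate 1, the lowest control. Its log2 fold change was -0.21 ± 0.055 at 12 h (adjusted p = 0.00194), -0.48 ± 0.055 at 24 h (adjusted p = 7.25e-08), -0.40 ± 0.055 at 48 h (adjusted p = 1.94e-06) and -0.49 ± 0.055 at 72 h (adjusted p = 4.68e-08). LAMP2, which also serves in chaperone-mediated autophagy, fell from 453 ± 65.1 CPM to 345 ± 17.01 CPM at 12 h and 349.8 ± 15.7 CPM at 24 h, with log2 fold changes of -0.39 ± 0.090 (adjusted p = 0.00051) and -0.37 ± 0.090 (adjusted p = 0.00107). Its falls at 48 and 72 h were smaller, overlapped with the control and were lost under several alternatives. MCOLN1, a calcium channel of the lysosomal membrane, had 3.01, 3.33, 3.70 and 6.10 CPM without EGF, with replicate 2 the highest, and was not called at any time. At 12 h its log2 fold change was 0.18 ± 0.18 (adjusted p = 0.384), and without the 4 libraries that stood apart it was 0.45 and was called (adjusted p = 0.0306).

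The 3 members of the V-ATPase differed from each other. ATP6V0D1, a subunit of the membrane sector, fell from 51.3 ± 5.04 CPM to 42.2 ± 0.885 CPM at 12 h and 35.8 ± 1.93 CPM at 24 h, with log2 fold changes of -0.28 ± 0.073 (adjusted p = 0.00143) and -0.52 ± 0.073 (adjusted p = 1.76e-06). By 48 h its level was 51.3 ± 4.40 CPM, and it was not called. ATP6AP1, an accessory subunit, had 161, 195, 203 and 249 CPM without EGF and 134, 137, 146 and 146 CPM at 24 h, a log2 fold change of -0.52 ± 0.10 (adjusted p = 0.000103), and was called at no other time. Both genes were below all controls at 24 h. ATP6V1H, a regulatory subunit of the cytosolic sector, rose instead. It had 28.7, 30.5, 32.9 and 34.9 CPM without EGF and 42.3, 42.6, 42.9 and 43.6 CPM at 72 h, a log2 fold change of 0.43 ± 0.075 (adjusted p = 2.73e-05), with no overlap. Its smaller rises at 24 and 48 h were lost without the 4 libraries that stood apart.

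**Figure D4:**
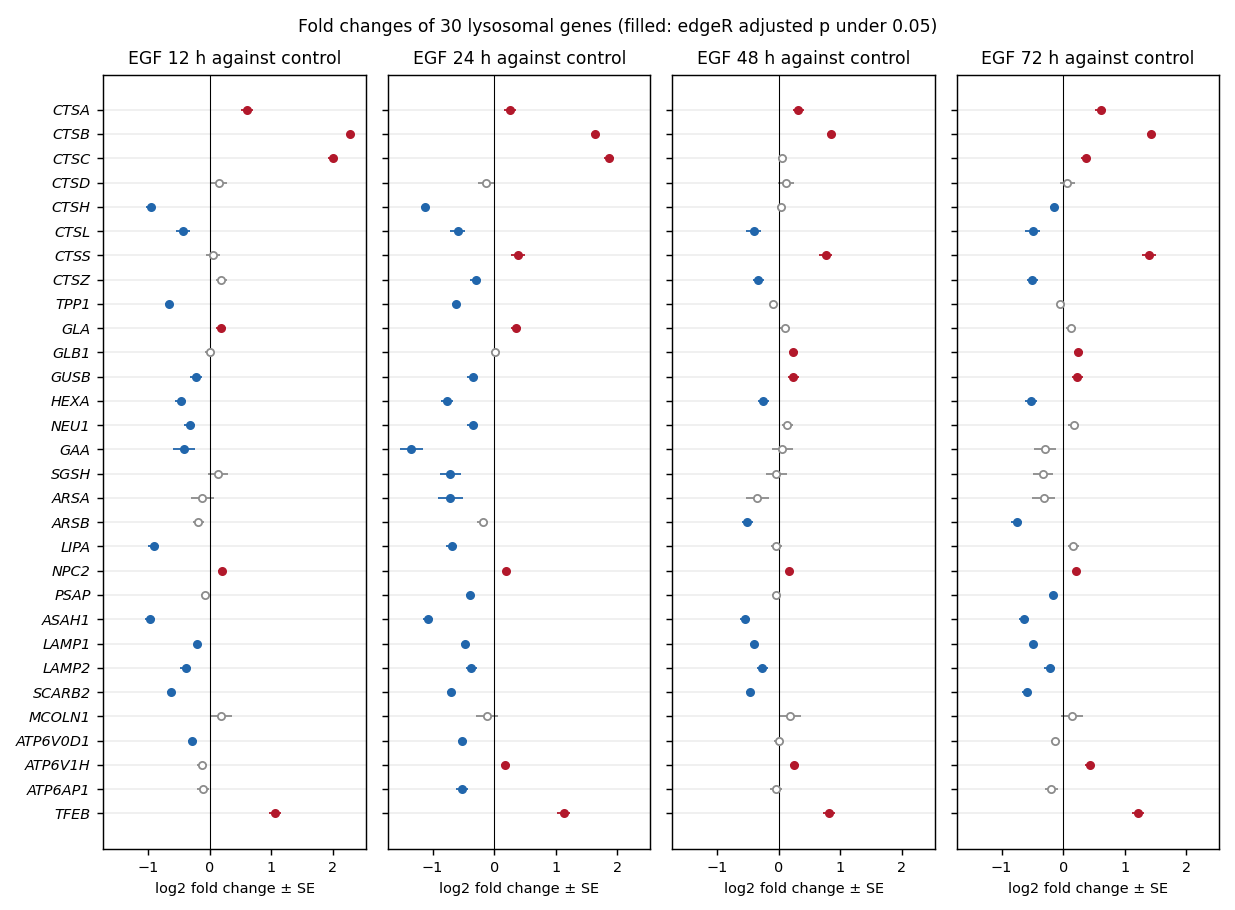
Log2 fold change against control with its standard error for the 30 lysosomal genes at the 4 EGF times (12, 24, 48, 72 h), from edgeR with TMM scaling. Filled red points rose and filled blue points fell with an adjusted p under 0.05, and open gray points were not called. At 24 h, 18 points are blue and 8 red, and at 48 h 8 are blue and 8 red.

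The gene for the transcription factor TFEB rose at all 4 times. Its CPM was 5.63, 5.96, 6.18 and 6.31 in the control, 11.7, 12.4, 12.7 and 13.3 at 12 h, 11.96, 12.9, 13.6 and 14.2 at 24 h, 9.19, 10.5, 10.9 and 11.9 at 48 h and 12.2, 13.2, 14.8 and 15.6 at 72 h. All EGF libraries were above all controls. Relative to untreated cells, the log2 fold change was 1.06 ± 0.10 at 12 h (adjusted p = 1.79e-09), 1.13 ± 0.10 at 24 h (adjusted p = 1.07e-09), 0.82 ± 0.10 at 48 h (adjusted p = 4.2e-07) and 1.22 ± 0.10 at 72 h (adjusted p = 2.08e-10). These are changes in transcript level, and TFEB protein and its place in the cell were not measured here. At the same times, the 5 genes whose promoters hold the CLEAR core did not change alike. At 24 h, CTSA rose, LAMP1, ATP6V0D1 and GAA fell, and MCOLN1 had a log2 fold change of -0.12 ± 0.18 and was not called.

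The other MiT/TFE genes had time courses of their own. MITF had 7.23, 8.75, 9.13 and 10.9 CPM without EGF, 34.8, 36.7, 36.8 and 37.3 CPM at 12 h, 11.7, 15.1, 15.1 and 15.4 CPM at 24 h, 12.8, 13.2, 15.7 and 15.96 CPM at 48 h and 20.8, 21.6, 21.9 and 22.1 CPM at 72 h. It was above all controls at every time, and its log2 fold change was 2.01 ± 0.11 at 12 h (adjusted p = 5.48e-14) and 1.26 ± 0.11 at 72 h (adjusted p = 4.38e-10). TFE3 had 28.4, 29.8, 34.5 and 40.7 CPM without EGF and 51.3, 54.02, 59.2 and 59.8 CPM at 12 h, a log2 fold change of 0.75 ± 0.11 (adjusted p = 1.49e-06), and was not called at the later times. TFEC had no count in any control library or at 12 or 24 h, 0 to 3 counts at 48 h and 9 to 31 counts at 72 h, where its mean of 0.785 CPM was at least 5.72-fold higher than 3 counts per control library.

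**Figure D5:**
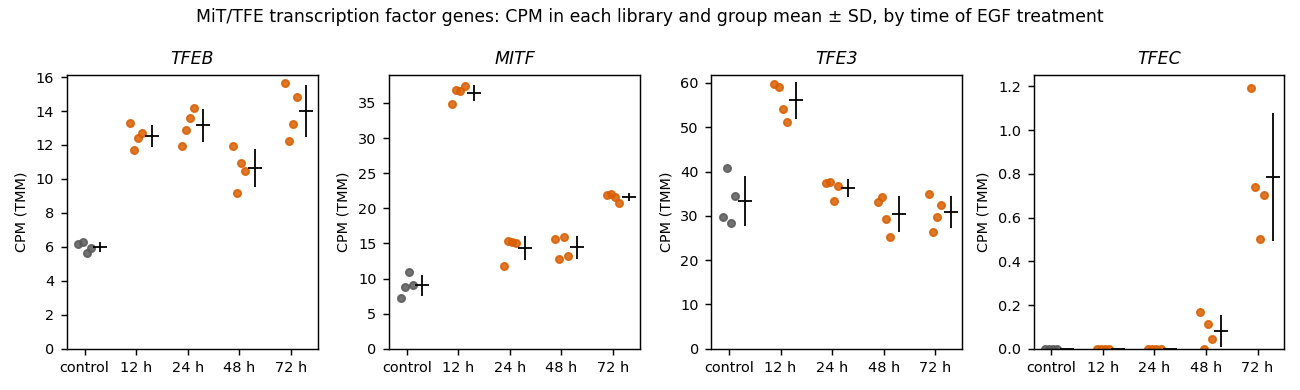
CPM after TMM scaling of TFEB, MITF, TFE3 and TFEC in each of the 4 control libraries (gray points) and the 4 libraries of each EGF time (orange points), with the group mean and SD as a bar. TFEB and MITF were above all controls at all 4 times, TFE3 at 12 h only, and TFEC had counts at 48 and 72 h only.

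Comparisons between successive times showed when the members changed. From 12 to 24 h, 3 rose and 12 fell (10% and 40%, against 27.9% and 25.9% of all genes). The falls include SGSH at -0.84 ± 0.17 (adjusted p = 0.000234), GAA at -0.93 ± 0.19 (adjusted p = 0.000287) and CTSZ at -0.49 ± 0.090 (adjusted p = 8.88e-05) on the log2 scale. From 24 to 48 h, 15 rose and 5 fell (50% and 16.7%, against 25.9% and 24.3% of all genes). The 15 rises include hydrolases of sugars (GAA, GUSB, HEXA and NEU1), of lipids (LIPA and ASAH1) and of proteins (CTSH and TPP1), and the 5 falls were those of CTSB, CTSC, GLA, ARSB and TFEB. From 48 to 72 h, 5 rose and 3 fell (16.7% and 10%, against 17.9% and 17.9% of all genes). The 5 rises were those of CTSA, CTSB, CTSC, CTSS and TFEB, that is 4 proteases and the transcription factor. Other scalings moved the balance here too. With library size only, the median of all genes shifted by 0.14 from 12 to 24 h and by 0.15 from 24 to 48 h, and 6 rose and 7 fell from 12 to 24 h, 22 rose and 2 fell from 24 to 48 h, and 4 rose and 8 fell from 48 to 72 h. With upper quartile scaling, where it shifted by 0.12 from 12 to 24 h (by -0.12 with factors per gene), 5 rose and 7 fell from 12 to 24 h and 4 rose and 4 fell from 48 to 72 h, and with DESeq2 size factors 6 rose and 2 fell from 48 to 72 h. With factors per gene, which again covered fewer genes, 5 rose and none fell from 48 to 72 h. The counts under these other scalings are likewise not to be read against the TMM shares of all genes.

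Other genes of the lysosome were counted in the same fit, with TMM scaling only, and their counts are read against the shares of all genes given above. Of 33 other lysosomal hydrolases and activators tested, 8 rose and 17 fell at 12 h, 7 and 22 at 24 h, 9 and 14 at 48 h, and 7 and 17 at 72 h, the median log2 fold change being -0.47 at 12 h and -0.44 at 24 h. From 24 to 48 h, 22 of them rose and 1 fell. These genes include HYAL1, with means of 0.162 CPM without EGF, 0.143 CPM at 12 h and 1.30 CPM at 72 h. HYAL1 passed the filter on low counts only through the later groups, so its part in these counts is a description only. SCPEP1, a serine carboxypeptidase, fell from 78.6 ± 6.99 CPM without EGF to 8.24 ± 1.17 CPM at 24 h (log2 fold change -3.25 ± 0.10, adjusted p = 8.51e-18). CTSV, a cathepsin close to CTSL, rose from 2.35 ± 0.741 CPM without EGF to 10.2 ± 0.247 CPM at 72 h (2.12 ± 0.16, adjusted p = 3.87e-11). Both changes were larger than that of any member in the same direction but CTSB, whose rise at 12 h exceeded that of CTSV.

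Of 21 other lysosomal membrane proteins, 4 rose and 11 fell at 12 h, 3 and 12 at 24 h, 4 and 8 at 48 h, and 6 and 9 at 72 h, the median log2 fold change being -0.52 at 24 h. NPC1, the partner of NPC2 in cholesterol export, rose from 58.4 ± 4.46 CPM without EGF to 116 ± 3.35 CPM at 12 h (log2 fold change 0.99 ± 0.080, adjusted p = 1.28e-10), and SIDT2, a nucleic acid transporter, fell from 11.6 ± 2.16 CPM without EGF to 3.86 ± 0.444 CPM at 12 h (-1.59 ± 0.17, adjusted p = 1.09e-08). Among 19 other V-ATPase subunits, the counts were 8 and 7 at 12 h, 6 and 6 at 24 h, 3 and 6 at 48 h, and 6 and 5 at 72 h, with a median of -0.12 at 24 h. The strongest changes were in subunits with tissue-restricted expression. ATP6V0D2, the isoform of ATP6V0D1 known from osteoclasts, rose from 12.5 ± 1.41 CPM without EGF to 109 ± 1.53 CPM at 72 h (log2 fold change 3.13 ± 0.088, adjusted p = 4.4e-19). ATP6V1B1, known from kidney and inner ear, fell from 30.8 ± 4.58 CPM without EGF to 3.63 ± 0.790 CPM at 24 h (-3.07 ± 0.16, adjusted p = 4.32e-14).

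Of the 13 genes that sort hydrolases to the lysosome, 3 rose and 3 fell at 12 h, 2 and 5 at 24 h, 1 and 4 at 48 h, and 3 and 5 at 72 h, with a median of -0.030 at 24 h. IGF2R, a mannose 6-phosphate receptor, rose from 29.2 ± 3.10 CPM without EGF to 56.8 ± 6.20 CPM at 24 h (log2 fold change 0.96 ± 0.089, adjusted p = 2.17e-09), and SORL1, a sorting receptor, fell from 59.7 ± 5.47 CPM without EGF to 23.9 ± 1.83 CPM at 12 h (-1.32 ± 0.087, adjusted p = 2.88e-12). Of 18 genes of MiT/TFE factors and amino acid signaling at the lysosome, 5 rose and 9 fell at 12 h, 3 and 7 at 24 h, 4 and 2 at 48 h, and 7 and 6 at 72 h, with a median of 0.0024 at 24 h. These genes include TFEC, which had no count in the control and passed the filter only through 72 h. Its part in these counts is a description only. MITF had the largest fitted rise among the listed genes with counts in the control. RRAGB, a GTPase of amino acid signaling, fell from 10.4 ± 1.58 CPM without EGF to 3.65 ± 0.876 CPM at 12 h (-1.51 ± 0.17, adjusted p = 3.83e-08).

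Of 8 genes for cystatins, which inhibit cysteine cathepsins, 4 passed the filter on low counts. CST1, CST2 and CST4 were at 0. CST3 had at most 1 count in any library, although most cell types are known to express it, so that its level is uncertain. CST6 and CSTB rose at all 4 times. CST6 rose from 0.842 ± 0.233 CPM without EGF to 20.998 ± 1.95 CPM at 12 h (log2 fold change 4.65 ± 0.18, adjusted p = 1.3e-16). CSTB had a mean of 459 ± 33.2 CPM without EGF, 749 ± 29.99 CPM at 12 h and 829 ± 41.8 CPM at 72 h. CST7 had means of 0.249 CPM without EGF, 0.289 CPM at 12 h and 9.13 CPM at 72 h, and CSTA of 0.535, 0.405 and 5.06 CPM. Without EGF both were near or below the level that the filter requires, so these values are a description only. The autophagy list differed from the hydrolases in its counts. Of 28 tested autophagy genes, 15 rose and 8 fell at 12 h, 16 and 4 at 24 h, 13 and 0 at 48 h, and 18 and 1 at 72 h, with a median of 0.32 at 24 h. ATG16L1, needed to form autophagosomes, rose from 17.8 ± 0.788 CPM without EGF to 83.1 ± 4.27 CPM at 12 h (log2 fold change 2.22 ± 0.092, adjusted p = 5.97e-16), and NBR1, an autophagy receptor, fell from 46.6 ± 1.44 CPM without EGF to 31.1 ± 0.704 CPM at 12 h (-0.58 ± 0.063, adjusted p = 1.67e-08).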

How the data were processed

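RNA was extracted from 20 cultures, and mRNA libraries (Lexogen Corall) were sequenced as 75-base single-end reads. The authors deposited an estimated count per gene and library, made with an aligner and annotation not given in the sources used here. The submitters' processing notes name the build hg38 and DESeq2. The values normalized by the authors, deposited beside the estimated counts, were treated as a score and used only to recover a factor per gene and library as an alternative. The authors' own comparison columns (fold changes, p-values) were not used. Depth was 15611961 to 25856953 counts.

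Estimated counts were rounded and filtered with filterByExpr, and 16522 of 60271 genes were fitted in edgeR 4.0.16 (R 4.3.3) with TMM scaling and a single quasi-likelihood fit over the 5 groups. The test was tried on simulated counts for EGF 12 h against control (16513 genes tested), where 49 of 100 genes changed 1.5-fold and 75 of 100 changed 2-fold were called, together with 11 unchanged genes. The simulation changed only these 1.5-fold and 2-fold genes, whereas in the data 32.9% of all genes rose and 36.5% fell at 12 h. Its rates therefore do not show how many genes the test calls wrongly or misses in the data. The members, the other gene lists and the rule for named genes (all 30 members, and the largest called rise and fall of each other list) were chosen with earlier results of these data known. Variance between replicates was 3.78 to 65.4 times the sampling noise over 30 pairs, and no files were identical. Replicate numbers were not treated as pairs in the main fit. Of 40 same-number pairs, 14 correlated above 0.1, and the correlations ran from -0.44 to 0.65. These values do not decide whether some libraries are paired. Other scalings, filters, fits and left-out libraries, and the DESeq2 1.42.0 Wald test, were tried. Positions come from GENCODE 29 and promoters from RefSeq (GRCh38.p14). Since 9 members had no promoter entry, these were not searched.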

Additional observations from a re-analysis of the deposited data

Results flagged for a closer look

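In 6 of 150 groups of 4 libraries (30 genes in 5 groups), 1 library lay apart from the other 3 by Dixon's 95% criterion, which chance meets in about 1 in 20 groups. CTSD in replicate 2 at 72 h was the lowest of its group, at 222.3 CPM. GLA in control replicate 1 was the highest, at 24.31 CPM. HEXA in replicate 1 at 24 h was the highest, at 16.36 CPM. LAMP1 in control replicate 1 was the lowest, at 353.4 CPM, and in replicate 2 at 48 h it was the highest, at 317.9 CPM. ATP6AP1 in replicate 2 at 72 h was the lowest, at 163.8 CPM.

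GUSB, the lysosomal beta-glucuronidase, was called in opposite directions at early and late times relative to the control. Of these calls, only the fall at 24 h was kept in every alternative, and those at 12, 48 and 72 h were each lost under several. The direct comparisons in edgeR gave log2 fold changes of 0.4575 for 48 against 12 h (adjusted p = 0.000105), 0.4484 for 72 against 12 h (adjusted p = 0.000154), 0.5869 for 48 against 24 h (adjusted p = 1.31e-05) and 0.5779 for 72 against 24 h (adjusted p = 2.47e-05). The late libraries were thus higher than the early ones in each of these 4 comparisons.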

How the results depend on the processing

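Of the calls against control, 14 of 19 at 12 h, 20 of 26 at 24 h, 8 of 16 at 48 h and 13 of 19 at 72 h were kept with the same direction in every alternative, and between successive times 8 of 15, 14 of 20 and 4 of 8 were. The cause of the losses was not tested. The members called at 48 h numbered 10 with factors per gene and 9 with only the 8 libraries compared, against 16, and those between 48 and 72 h numbered 5 with factors per gene and 5 with no filter beyond 1 count, against 8. Leaving out 1 library at a time gave 17 to 19 calls at 12 h, 24 to 27 at 24 h, 14 to 18 at 48 h, 15 to 22 at 72 h, 12 to 15 between 12 and 24 h, 20 to 21 between 24 and 48 h and 5 to 10 between 48 and 72 h, where replicate 2 at 48 h and replicate 1 at 72 h each left 5. Without the 4 libraries that stood apart, a setting chosen after seeing the data, there were 19, 25, 12 and 19 calls against control and 17, 20 and 8 between successive times. With library size only, some log2 fold changes turned: GLA at 12 h to -0.09861, GLB1 at 12 h to -0.2847, NPC2 at 12 h to -0.09163, and NPC2 between 12 and 24 h to 0.1408 (0.1151 with upper quartile scaling). With a replicate block, 7 members rose and 13 fell at 12 h, 8 and 18 at 24 h, 8 and 8 at 48 h, 9 and 10 at 72 h, 3 and 13 between 12 and 24 h, 15 and 5 between 24 and 48 h and 7 and 2 between 48 and 72 h. For these alternatives, the shares of all genes are not given. The labels do not call the replicate numbers a pairing, and the median correlation was 0.017 between same-numbered and -0.007 between other libraries. Single same-numbered pairs ranged from -0.44 to 0.65, so that a pairing of some libraries is not excluded. Depth limits the scarcer genes most, such as TFEC.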
